A study of Homo sapiens with 6 samples.

Results

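The respiratory chain assembly factors are the proteins that build complexes I to V of the mitochondrial inner membrane without staying in the finished enzymes. Their transcripts were taken by gene symbol from a table of 20020 genes: 52 symbols matched the name pattern of the families NDUFAF, SDHAF, UQCC, COA, COX10 to COX19, COX20, SCO, LYRM and ATPAF and of single factors such as *SURF1* and *BCS1L*. A minimum of 20 reads summed over all libraries left 51 members. The symbol just outside was *SCO2*, a copper chaperone, with 6 reads in all (counts of 3, 0 and 3 with RIP and 0, 0 and 0 with input). The members just inside were *UQCC3* with 43 reads, *PET117* with 51, *PET100* with 65 and *LYRM9* with 91. The filter on low counts (filterByExpr) left 50 members to be tested, all but *UQCC3*.

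The libraries came from 786-O, an established cell line of human clear cell kidney cancer, grown without a treatment or gene modification that the labels name. RNA recovered with an antibody against IGF2BP2, an RNA-binding protein of the cytoplasm that is described as a reader of N6-methyladenosine, was sequenced in 3 RIP (RNA immunoprecipitation) libraries. Input RNA was sequenced in 3 further libraries, and both groups are from the same unsplit line. The labels do not say whether replicates were separate cultures, so each p-value rests on library-to-library spread that may be purely technical. No control immunoprecipitation enters the comparison, so enrichment is over input only and RNA that any antibody or bead recovers is part of it.

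Depth was 33872621 to 44045835 reads in the RIP libraries and 25773819 to 27226405 in the inputs. The members took 0.0787% to 0.0803% of the reads in RIP and 0.0893% to 0.0927% in input. Renal markers were present, with *PAX8* at 439 to 661 CPM (reads scaled to 1e+06 per library) and *CDH6* at 521 to 993, while no endothelial, immune, blood or fibroblast marker of 15 examined exceeded 4.67 CPM in any library and the immune marker *PTPRC* stayed at or under 0.380. Levels below are CPM after TMM scaling (which sets a trimmed average over genes to no change between libraries), given with the SD over 3 libraries. Fold changes are RIP over input relative to that average gene, so the median of all tested genes stood at a log2 fold change of -0.024. Scaled by library size only, that median was -0.26, with 32.0% of tested genes enriched and 50.4% depleted, and the members' median moved from -0.80 to -1.04.

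As background, the respiratory complexes combine subunits from nuclear and mitochondrial genes with heme, copper, iron-sulfur and flavin groups. Assembly factors hold unfinished subunits, insert these groups, regulate translation of mitochondrial mRNAs or join modules, and loss of many of them causes mitochondrial disease. Clear cell renal carcinoma is known for lowered oxidative metabolism. All members are nuclear genes whose mRNAs are translated outside the mitochondrial matrix.

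Most assembly factor mRNAs were less abundant in the IGF2BP2 RIP than in input. Of 50 tested members, 33 were depleted, 10 were enriched and 7 did not pass edgeR's quasi-likelihood test at a Benjamini-Hochberg adjusted p under 0.05 over all genes. Over all 12856 tested genes 42% were depleted and 40.7% enriched by the same rule. A depletion of 2-fold or more was called for 22 of the 50 members, against 19.7% of all tested genes, and an enrichment of that size for 3, against 15.1%. Of the 5350 tested genes within the members' length quartiles (1390 to 3888 nt), 1551 were depleted and 520 enriched by that much. The median log2 fold change of the members was -0.80, with quartiles of -1.68 and -0.0086. All 3 RIP libraries lay below all inputs for 34 members and above them for 10, and the groups overlapped for 6. Over all tested genes the groups were apart in 83.1%. Members given per library below were mostly picked from those without overlap, so that gap follows from the choice. By role, all 4 complex II factors and 9 of 11 complex I factors were depleted, and the enriched members included both enzymes of heme A synthesis among 6 of the 21 complex IV factors. These fold changes measure recovery with the antibody relative to input. The libraries are from bulk cells, so for a level within either group, fewer cells with a transcript and less of it per cell cannot be told apart.

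**Figure D1:**
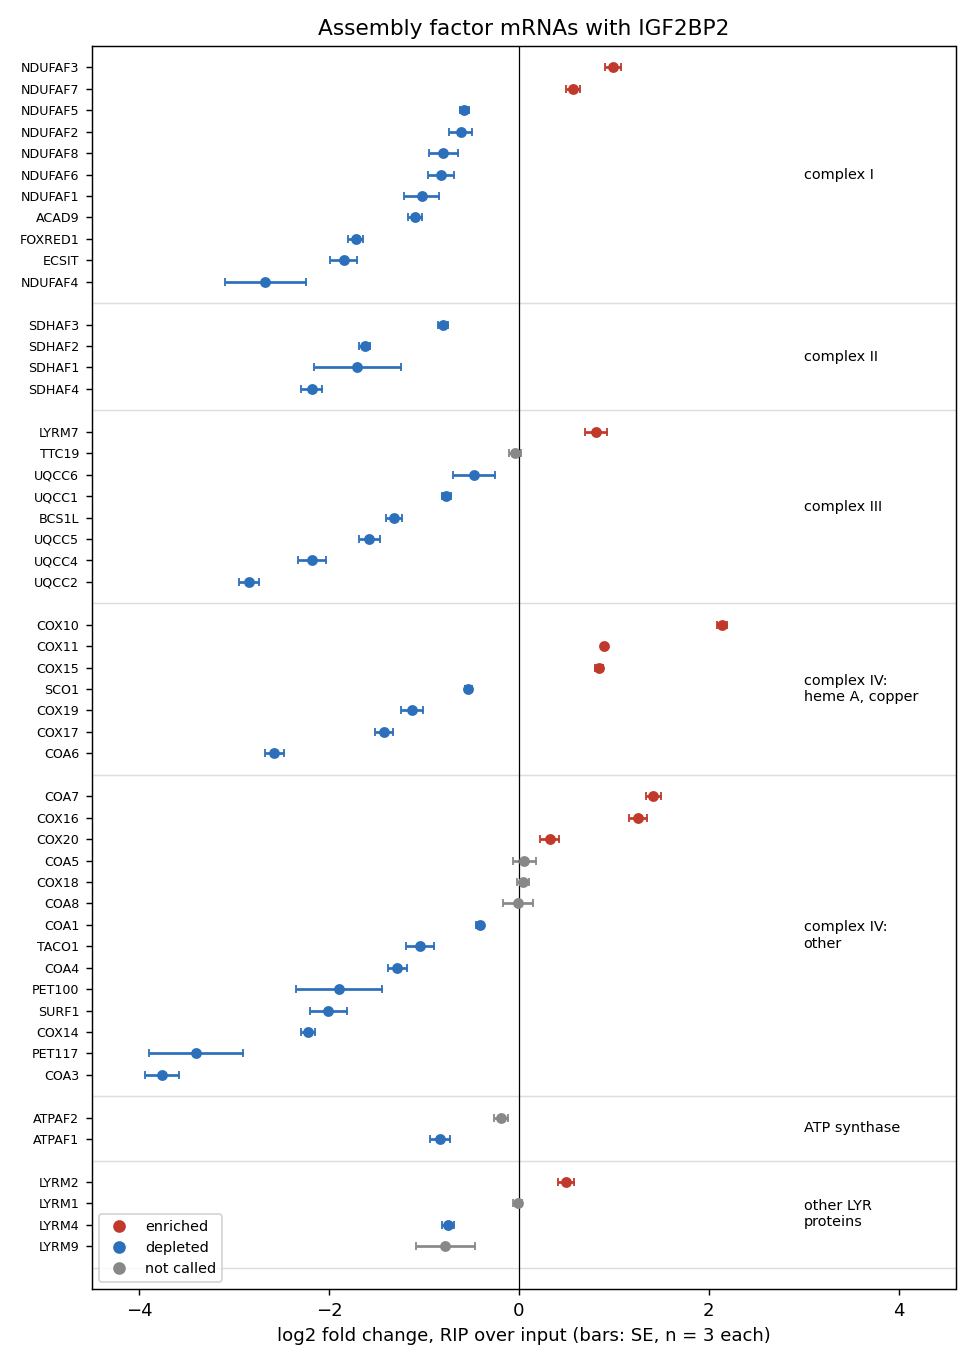
Log2 fold change of RIP over input for the 50 tested assembly factors, grouped by the complex they serve and ordered within each group; points are edgeR estimates, bars are SE from 3 libraries per group, and colours give the call. *COX10* lies highest at 2.13 and *COA3* lowest at -3.76, and most points lie left of 0.

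The members were short, and length moved with the result. The lengths that link the deposited counts and FPKM values (exonic lengths used by the authors) had a median of 2366 nt over the tested members and 3981 nt over all tested genes. Across the 50 members the log2 fold change rose with log2 length (Spearman's rho 0.55, Pearson's r 0.50, a description across genes of the same 6 libraries), and across all 12856 genes rho was 0.44. Among all tested genes within the members' length quartiles, 1390 to 3888 nt, 54.7% were depleted and 27.2% enriched, beside 66% and 20% of the members. After a loess correction of each library for gene length, 27 members were depleted and 17 enriched, where 40% and 40.2% of all tested genes were called in the same directions, and the members' median was -0.48. All 10 enriched members were enriched in that fit too, and 26 of the 33 depleted ones were depleted in it. Enriched members thus made up 38.6% of the calls with the correction and 23.3% without it. Over all tested genes these shares were 50.1% and 49.2%, and within the members' length quartiles 48.8% and 33.25%. The part of fragmentation, length and binding in these values was not tested.

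**Figure D2:**
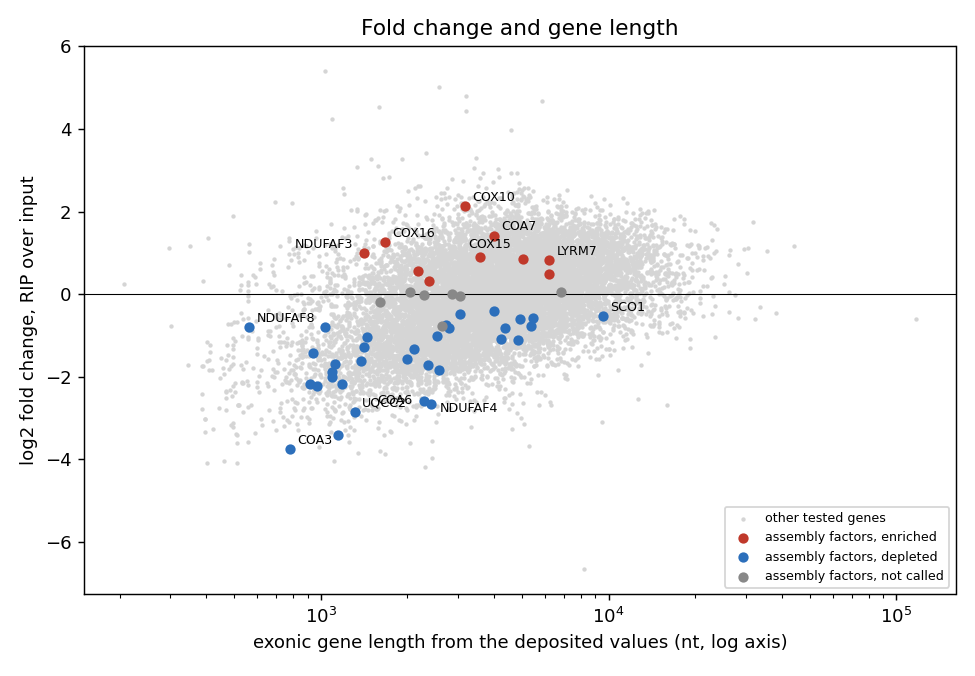
Log2 fold change of RIP over input against exonic gene length on a log axis, with every tested gene in light grey and the 50 assembly factors coloured by call. The shortest members lie mostly low, *COX16* (1669 nt) and *NDUFAF3* (1409 nt) lie above 0 at short length, and *SCO1* (9577 nt) lies below 0 at the greatest length.

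The start regions of members from both ends of the range are shown, since the 5' end is a feature by which mRNAs of the translation machinery are known to be grouped. They are RefSeq sequences (GRCh38.p14), 25 bases before and 5 from the table's transcript start, 5′ to 3′, with the first 5 transcribed bases in capitals. The first 6 belong to enriched members and the last 4 to depleted ones.
*COX10* (chr17:14069479-14069508, + strand): cgcccgccggaagtggcggcccggaACTAC
*COA7* (chr1:52698343-52698372, - strand): gccccctccgccggctcacgtgaccGTCTT
*COX16* (chr14:70359679-70359708, - strand): ataaccaaggaaaaggaagtgagttAAGGA
*NDUFAF3* (chr3:49020427-49020456, + strand): agaggtcctgggtccaccctccctcGCCAA
*COX15* (chr10:99732123-99732152, - strand): ggctcccgctgcccgacccggaagtGCTTC
*LYRM7* (chr5:131170919-131170948, + strand): aacgcgactacagggggctggaaacAGTTC
*NDUFAF4* (chr6:96897887-96897916, - strand): agcgcccgcggcggggcttcccctcACTTG
*COA6* (chr1:234373658-234373687, + strand): cggacgtgggcgggcagagaggtcgGCTTG
*UQCC2* (chr6:33711696-33711725, - strand): cgactcctcccgctaaggcgggaacACGCG
*COA3* (chr17:42798700-42798729, - strand): ttcccagcgaggcccgcgcggcggcACCGC
No start among the 47 members with an entry in that table began with a C followed by 4 bases that were all C or T, the opening of a 5' terminal oligopyrimidine tract, and 4.66% of the 15397 genes of the count table with an entry did. The starts used in these cells were not measured. The windows of *COX10* and *COX15* share the letters CCGGAAGT, a core of ETS-family sites. On either strand, within a 300-base window lying mostly before the start, these letters occurred in 10 of 47 members (21.3%). They occurred in 10 of 65 nuclear subunit genes (15.4%) and in 6.31% of the 15397 genes. *COX10* and *COX15* are themselves among those 10 members, so the members' share is not independent of the windows shown. Of those 10 members 3 were enriched, 5 depleted and 2 not called, and RIP over input does not measure transcription. *COX11*, *FOXRED1*, *NDUFAF6* and *UQCC3* were not among the matched entries.

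Both enzymes that make heme A, the cofactor that only cytochrome c oxidase (complex IV) uses, were enriched. They belong to the class of 7 heme A and copper delivery factors, of which 3 were enriched (42.9%) and 4 depleted (57.1%). Among all tested genes 40.7% were enriched and 42% depleted, and within the members' length quartiles 27.2% and 54.7%. *COX10* (chromosome 17, 14069504 to 14208677 on GRCh38) encodes the farnesyltransferase that turns heme B into heme O. It stood at 122, 119 and 117 CPM in RIP against 29, 26 and 26.6 in input. Every RIP library was above every input, and the mean rose 4.39-fold from 27.2 ± 1.6 to 119 ± 2.93 CPM (n = 3 each, log2 fold change 2.13, SE 0.0524, edgeR adjusted p = 6.32e-22). *COX15* (chromosome 10, 99694293 to 99732127) encodes the enzyme of the next step, heme O to heme A. Its level was 51.9, 57 and 52.5 CPM in the RIP libraries and 30.5, 29.5 and 30.0 CPM in the inputs. The groups did not overlap and the rise was 1.8-fold (log2 fold change 0.84, SE 0.0452, edgeR adjusted p = 4.53e-13). *COX11* (chromosome 17, 54951902 to 54968785), which delivers copper to the CuB site of the COX1 subunit, stood at 129.8, 127 and 127 CPM in the RIP libraries and 69.3, 67.4 and 69.3 CPM in the inputs. It rose 1.86-fold (log2 fold change 0.90, SE 0.0175, edgeR adjusted p = 5.49e-16) with the smallest SE of the tested members. With the length correction the log2 fold changes of *COX10*, *COX11* and *COX15* were 2.32, 0.95 and 0.65.

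The other copper factors were lower in RIP. *COX17* carries copper in the intermembrane space, *SCO1* hands it to the CuA site of the COX2 subunit, *COA6* acts with the SCO proteins and *COX19* helps to keep copper balance. *COA6* stood at 1.69, 2.04 and 1.99 CPM in RIP against 11.7, 10.6 and 11.9 in input, a 5.97-fold lower level with no overlap (log2 fold change -2.58, SE 0.0999, edgeR adjusted p = 7.10e-16). *COX19* was at 4.58, 4.34 and 3.52 CPM in the RIP libraries and 9.16, 9.17 and 8.91 CPM in the inputs, 2.18-fold lower (adjusted p = 2.27e-09 in edgeR). *SCO1* moved least of these, from 28.8, 28.3 and 27.4 CPM in the inputs to 20.3, 19.3 and 18.9 in RIP, 1.45-fold lower (log2 fold change -0.53, SE 0.0372, edgeR adjusted p = 4.79e-08). *COX17* was 2.68-fold lower at 1.51 ± 0.102 CPM in RIP and 4.06 ± 0.378 in input, but with the length correction it no longer passed (log2 fold change -0.11, edgeR adjusted p = 0.575). *SCO1* and *COX19* were further from 0 in that fit, at -1.01 and -1.29. *SCO2*, the paralog of *SCO1*, had too few reads for a value, and its RefSeq span overlaps those of *NCAPH2* and *TYMP*.

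**Figure D3:**
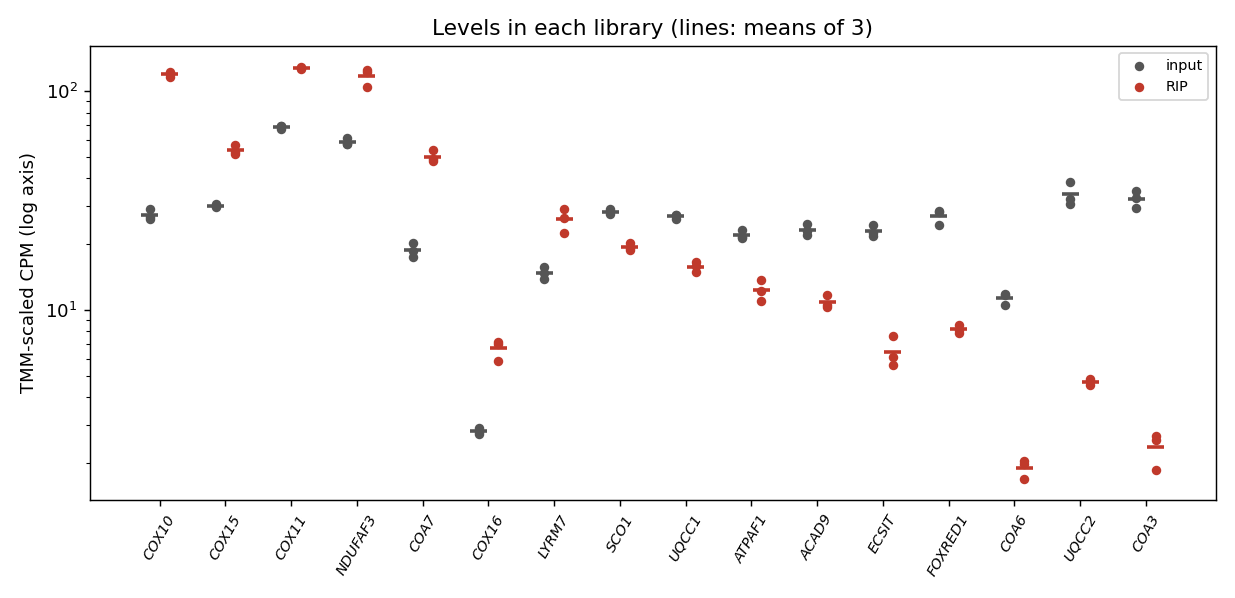
TMM-scaled CPM on a log axis in each of the 6 libraries for 16 assembly factors (points, with a line at each group's mean of 3). Each gene shown is a called member picked among those whose groups do not overlap, so the 3 RIP libraries lie on one side of the 3 inputs. The 6 members with overlap are not shown, and over all tested genes the groups were apart in 83.1%. Means run from *COX10* with RIP near 119 and input near 27.2 to *COA3* with RIP near 2.36 and input near 32.3.

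The remaining 14 complex IV factors were listed as acting in maturation of the mitochondrially translated COX1 and COX2 subunits or elsewhere. Of these, 8 were depleted (57.1%), 3 enriched (21.4%) and 3 not called. The shares were 54.7% depleted and 27.2% enriched among all tested genes within the members' length quartiles, and 42% and 40.7% over all tested genes. *COA3* and *COX14* encode small membrane proteins that bind newly made COX1 and regulate its translation. *COA3* (chromosome 17, 42797625 to 42798704) fell furthest of the tested members: it stood at 2.66, 2.56 and 1.86 CPM in the RIP libraries and 29.3, 32.6 and 35 CPM in the inputs. The mean was 13.6-fold lower in RIP (log2 fold change -3.76, SE 0.18, edgeR adjusted p = 1.60e-20), with a wide gap between the groups. *COX14* was at 1.6, 1.74 and 1.83 CPM in RIP against 8.49, 7.56 and 8.02 in input, again without overlap and 4.66-fold lower (log2 fold change -2.22, SE 0.0734, edgeR adjusted p = 8.69e-14). *SURF1*, which takes part in the heme-bearing stage of COX1 and is mutated in Leigh syndrome, was 4.02-fold lower, at 1.65 ± 0.37 CPM in RIP and 6.61 ± 0.367 in input. With the length correction the log2 fold changes of *COA3*, *COX14* and *SURF1* were -2.30, -0.93 and -0.81, against -3.76, -2.22 and -2.01 without it. *TACO1*, a translational activator of COX1 mRNA, was 2.06-fold lower at 1.2 ± 0.217 CPM in RIP against 2.45 ± 0.0209 in input, a call that ended with the length correction (log2 fold change -0.063). *COA1*, found with early COX1 intermediates, changed less, from 50.8, 52.1 and 53 CPM in the inputs to 38.9, 40.4 and 37.7 in RIP (1.33-fold lower, edgeR adjusted p = 8.94e-08).

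*COX16*, *COX18* and *COX20* take part in the maturation of COX2. *COX16* (chromosome 14, 70325081 to 70359683) stood at 5.86, 7.0 and 7.18 CPM in the RIP libraries and 2.89, 2.79 and 2.71 CPM in the inputs, 2.39-fold higher in RIP without overlap (log2 fold change 1.26, SE 0.0955, edgeR adjusted p = 4.00e-09). It shares its span with the readthrough gene *SYNJ2BP-COX16*, whose row held no reads. *COX20* was at 27.8, 33.3 and 27.2 CPM in the RIP libraries and 23.4, 22.6 and 24.8 CPM in the inputs, higher with the groups apart (log2 fold change 0.32, SE 0.0996, edgeR adjusted p = 3.17e-04). With library size alone as the scale *COX20* had a log2 fold change of 0.083 and was not called, and RefSeq names 2 pseudogenes of it. *COX18*, the insertase for the COX2 tail, overlapped between groups at 18.4, 20.8 and 18.5 CPM in RIP against 18.8, 18.2 and 19 in input (edgeR adjusted p = 0.582). It was called lower with library size alone (-0.20) and with the length correction (-0.32).

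*COA7* (chromosome 1, 52684449 to 52698347), a cysteine-rich protein of the intermembrane space needed for complex IV, was the second most enriched member, at 48.2, 53.8 and 48.8 CPM in the RIP libraries and 18.7, 20.3 and 17.6 CPM in the inputs. That is 2.67-fold higher with a clear gap (log2 fold change 1.42, SE 0.0779, edgeR adjusted p = 2.78e-16), and 1.38 on the log2 scale with the length correction. *COA4*, a small twin-cysteine protein, went down from 26.4, 31.1 and 25.8 CPM in the inputs to 11.7, 10.6 and 12 in RIP, 2.43-fold lower (log2 fold change -1.28, SE 0.099, edgeR adjusted p = 1.96e-13). Its log2 fold change was -0.29 with the length correction. *COA5* overlapped between groups (5.29 ± 0.562 CPM in RIP, 5.06 ± 0.507 in input) and so did *COA8* (5.62 ± 0.107 and 5.66 ± 1.1), and neither was called (edgeR adjusted p = 0.679 and 0.959). With the length correction both were called higher, at 0.70 and 0.29 on the log2 scale (edgeR adjusted p = 2.03e-05 and 0.0466). *PET117* and *PET100*, small factors named after their yeast counterparts, were near the detection limit. *PET117* had counts of 1, 3 and 1 with RIP and 20, 12 and 14 with input, a fitted 10.6-fold depletion with a wide error (SE 0.495 on the log2 scale). *PET100* had 4, 9 and 3 and 14, 23 and 12 reads and was 3.72-fold lower, which did not pass with the length correction (edgeR adjusted p = 0.186).

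Complex I assembly proceeds through modules, each with its own factors. *NDUFAF1*, *ECSIT* and *ACAD9* belong to the MCIA complex, which builds part of the membrane arm, and all 3 were depleted. Of the 11 complex I factors 9 were depleted (81.8%), beside 42% of all tested genes and 54.7% of those within the members' length quartiles. *ECSIT* was at 6.12, 5.61 and 7.59 CPM in the RIP libraries and 21.8, 24.6 and 22.6 CPM in the inputs, 3.59-fold lower without overlap (log2 fold change -1.85, SE 0.14, edgeR adjusted p = 3.68e-15). *ACAD9*, an acyl-CoA dehydrogenase relative that also serves in assembly, was at 10.4, 10.6 and 11.7 CPM in RIP against 24.8, 22.9 and 22.1 in input, 2.14-fold lower (log2 fold change -1.10, SE 0.0734, edgeR adjusted p = 2.24e-12). *NDUFAF1* was 2.03-fold lower at 2.38 ± 0.537 CPM in RIP and 4.88 ± 0.201 in input. *FOXRED1*, an oxidoreductase-like factor of the mid to late stages, stood at 7.9, 8.59 and 8.07 CPM in the RIP libraries and 24.6, 28.3 and 28.2 CPM in the inputs and was 3.3-fold lower (log2 fold change -1.72, SE 0.0768, edgeR adjusted p = 4.48e-16). *TMEM126B*, a further MCIA member that the name pattern does not take in, was higher in RIP. It stood at 32.4 ± 2.06 CPM against 23.6 ± 2.22 in input (1.38-fold, edgeR adjusted p = 1.93e-06). Factors outside the pattern went in both directions, and of the 26 tested 20 were depleted and 5 enriched. *DMAC2* and *NUBPL* were also higher in RIP (log2 fold changes 0.47 and 0.56), while *TMEM186* and *TIMMDC1* were lower. *TMEM186* was at 1.71 ± 0.412 CPM in RIP against 3.97 ± 0.237 in input (edgeR adjusted p = 1.29e-06). *TIMMDC1* was at 26.2 ± 0.764 CPM in RIP against 52.5 ± 1.46 in input (edgeR adjusted p = 1.04e-14).

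The partners *NDUFAF3* and *NDUFAF4*, which act together on the early Q module, were on opposite sides. *NDUFAF3* (chromosome 3, 49020452 to 49023495) was at 122, 105 and 125 CPM in the RIP libraries and 57.4, 57.6 and 61.3 CPM in the inputs, 1.99-fold higher with the groups well apart (log2 fold change 1.00, SE 0.0844, edgeR adjusted p = 3.80e-14). It had the highest FPKM of the members in both groups, 76.6 ± 7.35 in RIP and 45.3 ± 1.82 in input. Its span overlaps *DALRD3* on the opposite strand, which was lower in RIP (log2 fold change -0.76), and the strand setting of the counting is not given in the sources used here. *NDUFAF4* (chromosome 6, 96889315 to 96897891) was at 1.63, 1.91 and 0.737 CPM in RIP against 9.62, 9.67 and 8.74 in input. All RIP libraries were below all inputs, 6.37-fold on average, but RIP library 3 lay below the other two and the SE was 0.428 on the log2 scale (edgeR adjusted p = 1.32e-11). Without that library the log2 fold change was -2.39. RefSeq lists 4 pseudogenes of *NDUFAF4*, and how reads with several alignments were counted is not given.

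*NDUFAF7*, a methyltransferase of the matrix, was the other enriched complex I factor, at 12.5, 13.3 and 12.3 CPM in the RIP libraries and 9.05, 7.82 and 8.81 CPM in the inputs (1.49-fold, log2 fold change 0.57, SE 0.0733, edgeR adjusted p = 3.77e-06). *NDUFAF5*, which hydroxylates NDUFS7, and its partner *NDUFAF8* were both lower. *NDUFAF5* went from 5.35, 5.51 and 5.13 CPM in the inputs to 3.43, 3.75 and 3.56 in RIP and *NDUFAF8* from 3.8, 5.17 and 4.39 to 2.75, 2.28 and 2.69, 1.49-fold and 1.74-fold lower. *NDUFAF8* has the shortest length of the members, 565 nt, and its direction turned with the length correction, to 0.89 on the log2 scale (edgeR adjusted p = 1.27e-05). *NDUFAF2*, which stays on a late intermediate, was 1.53-fold lower (means of 4.05 ± 0.479 CPM in RIP and 6.17 ± 0.483 in input). *NDUFAF6*, an early factor, was 1.76-fold lower (4.78 ± 0.67 and 8.44 ± 0.824 CPM).

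The complex II factors equip the succinate dehydrogenase subunits with their cofactors. *SDHAF2* promotes attachment of flavin to SDHA and *SDHAF4* binds the flavinated SDHA, while *SDHAF1* and *SDHAF3* help the iron-sulfur subunit SDHB. *SDHAF4* was at 2.03, 1.91 and 1.79 CPM in the RIP libraries and 7.71, 9.74 and 8.63 CPM in the inputs, 4.54-fold lower (log2 fold change -2.18, SE 0.11, edgeR adjusted p = 1.36e-13). *SDHAF2* was at 3.49, 3.72 and 3.46 CPM in RIP against 10.6, 10.6 and 11.8 in input, 3.08-fold lower (log2 fold change -1.62, SE 0.0594, edgeR adjusted p = 6.07e-13). *SDHAF3* was at 7.38, 7.0 and 6.73 CPM in the RIP libraries and 12.7, 12.4 and 11.6 CPM in the inputs, 1.74-fold lower (edgeR adjusted p = 2.53e-08). In each of these the 3 RIP libraries lay below the inputs. *SDHAF1* had few reads in RIP (59, 24 and 35) and was 3.26-fold lower with an SE of 0.461 on the log2 scale. These are short genes, 1032 to 1383 nt, and with the length correction *SDHAF2* and *SDHAF4* were still called lower (-0.61 and -1.04), *SDHAF1* did not pass (edgeR adjusted p = 0.0616) and *SDHAF3* turned to 0.45.

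For complex III, the UQCC proteins stabilise newly made cytochrome b, and *LYRM7* and *BCS1L* bring in the Rieske iron-sulfur subunit. *UQCC2* (chromosome 6, 33696764 to 33711700) stood at 4.55, 4.74 and 4.84 CPM in the RIP libraries and 32.1, 38.7 and 30.6 CPM in the inputs. It fell 7.18-fold with no overlap (log2 fold change -2.84, SE 0.107, edgeR adjusted p = 3.35e-19), and its log2 fold change was -1.78 with the length correction. Its partner *UQCC1* fell less, from 26, 27.2 and 27.3 CPM in the inputs to 14.9, 16.6 and 15.9 in RIP, 1.7-fold (log2 fold change -0.76, SE 0.0492, edgeR adjusted p = 2.16e-10). *UQCC4* and *UQCC5* were 4.53-fold and 2.99-fold lower, at 1.2 ± 0.192 and 1.44 ± 0.177 CPM in RIP against 5.43 ± 0.452 and 4.32 ± 0.202 in input. *UQCC6* was at 3.2, 3.28 and 2.85 CPM in RIP against 3.35, 4.1 and 5.56 in input, 1.39-fold lower (edgeR adjusted p = 0.0109), a call that was lost in several alternatives. Without input library 3 the log2 fold change was -0.26 (edgeR adjusted p = 0.167), with the length correction it was -0.24 (edgeR adjusted p = 0.18), and DESeq2 gave an adjusted p of 0.0513.

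*LYRM7*, the chaperone that holds the Rieske protein in the matrix, was higher, at 26.4, 28.9 and 22.6 CPM in the RIP libraries and 15.8, 14.7 and 13.9 CPM in the inputs (1.76-fold, log2 fold change 0.81, SE 0.116, edgeR adjusted p = 2.27e-09). *BCS1L*, the AAA protein that moves it across the membrane, was lower, at 8.24, 8.54 and 7.66 CPM in the RIP libraries and 18.6, 20.3 and 22.2 CPM in the inputs (2.49-fold, log2 fold change -1.32, SE 0.0874, edgeR adjusted p = 4.73e-13). Thus the pair that handles this subunit stood on opposite sides. *BCS1L* shares part of its span with *ZNF142* on the opposite strand, which was higher in RIP (log2 fold change 0.82). *TTC19*, which helps to clear fragments of the Rieske protein from the finished complex, overlapped between groups at 30.9, 32.6 and 29.7 CPM in RIP against 32.2, 33.7 and 29.9 in input (edgeR adjusted p = 0.574). It was called lower when scaled by library size only (-0.28) and on both log2 FPKM scales, and higher with the length correction (0.19), so its direction is not settled.

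Of the ATP synthase factors, *ATPAF1* binds the beta subunit and *ATPAF2* the alpha subunit of the F1 part. *ATPAF1* was at 12.2, 13.8 and 11 CPM in the RIP libraries and 21.6, 21.3 and 23.3 CPM in the inputs, 1.78-fold lower and apart (log2 fold change -0.83, SE 0.103, edgeR adjusted p = 1.32e-09). *ATPAF2* was at 7.58, 8.09 and 8.75 CPM in the RIP libraries and 9.48, 8.7 and 9.66 CPM in the inputs, where the groups overlapped and the test was not passed (log2 fold change -0.19, SE 0.0757, edgeR adjusted p = 0.0797). It was called lower when scaled by library size only (-0.43) and higher with the length correction (0.69), so it has no settled direction.

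The remaining LYR motif proteins include *LYRM4*, which is part of the iron-sulfur cluster synthesis complex with the desulfurase NFS1. *LYRM4* was at 14.3, 14.8 and 15.2 CPM in RIP against 23.2, 26.4 and 24.8 in input, 1.68-fold lower with no overlap (log2 fold change -0.75, SE 0.060, edgeR adjusted p = 8.43e-10). *LYRM2* was at 29.1, 30.2 and 26.4 CPM in the RIP libraries and 21.9, 20.1 and 18.9 CPM in the inputs, 1.41-fold higher (log2 fold change 0.49, SE 0.0852, edgeR adjusted p = 7.95e-07). *LYRM1* overlapped between groups, with 20.3 ± 0.319 CPM in RIP and 20.5 ± 1.18 CPM in input (edgeR adjusted p = 0.879) and, like *ATPAF2*, was called lower with library size alone (-0.25) and higher with the length correction (0.53). *LYRM9* was below 1 CPM in every library and did not pass (edgeR adjusted p = 0.0642), though it was called lower when scaled by library size only (-1.01) and without input library 1 (-0.98).

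The change reordered the members by level per length. By mean FPKM in input, *NDUFAF3* (45.3 ± 1.82) and *COA3* (45 ± 4.22) led and differed by less than the SD of *COA3*, followed by *UQCC2* (28 ± 3.73), *COA4* (21.3 ± 2.33) and *COX11* (20.8 ± 0.249). *COA4* and *COX11* also differed by less than the SD of *COA4*. In RIP the order by FPKM began with *NDUFAF3* (76.6 ± 7.35), *COX10* (34.6 ± 0.897) and *COX11* (32.8 ± 0.519), where *COX10* had ranked 15 in input, and *COA3* ranked 22. Together *COX10*, *COX11*, *COX15*, *NDUFAF3* and *COA7*, chosen after their values were seen, took 52.9% to 54.9% of all member reads in the RIP libraries and 23.7% to 24.7% in the inputs.

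**Figure D4:**
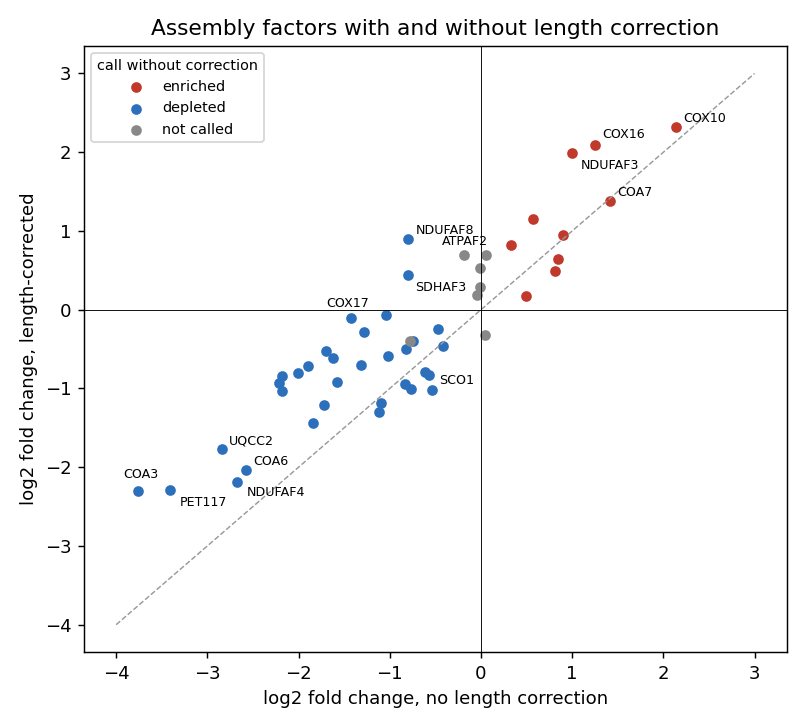
Log2 fold change of the 50 tested assembly factors without (horizontal) and with (vertical) the correction for gene length, coloured by the uncorrected call, with the line of equality dashed. The 10 enriched members stay above 0, and *NDUFAF8* and *SDHAF3* are the called members that cross 0.

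Other genes of the same pathways were mostly lower as well. Of 29 further assembly and maturation factors listed by role, 26 were tested, of which 20 were depleted (76.9%) and 5 enriched (19.2%). Over all tested genes the shares were 42% and 40.7%, and within the members' length quartiles 54.7% and 27.2%. The log2 fold changes of the 26 factors had a median of -0.96. *CMC1*, which acts with the COX1 factors, was 5.41-fold lower (2.48 ± 0.25 CPM against 13.5 ± 0.611 in input). *AIFM1*, which takes part in import of small cysteine-rich proteins, was 4.41-fold lower. *PNKD* was 2.17-fold higher and *NUBPL*, an iron-sulfur protein for complex I, 1.48-fold higher. Of 78 tested nuclear subunits of complexes I to V, 70 were depleted (89.7%) and 7 enriched (8.97%), from *NDUFC2* of complex I (18.3-fold lower) to *UQCRC2* of complex III (1.7-fold higher). The median was -1.37 for the log2 fold change and 1625 nt for the length. With the length correction the subunits stood at 49 depleted (62.8%) and 21 enriched (26.9%), and the other factors at 14 (53.8%) and 9 (34.6%). Over all tested genes 40% were depleted and 40.2% enriched in that fit. The medians of the subunits and the other factors were then -0.68 and -0.35, beside -0.48 for the members. Whether the lists differ from each other was not tested.

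RefSeq spans of 19 members overlap a gene of the count table and 10 members have a pseudogene named after them. Of the enriched members, *COX15* overlaps *ENTPD7* on the opposite strand, which was also higher in RIP (log2 fold change 1.28). *COX11* overlaps *STXBP4* (log2 fold change 1.21) and *TOM1L1* (-0.037), and *NDUFAF7* overlaps *PRKD3* on the opposite strand (0.39). Depleted members have such overlaps too. *COA4* overlaps *PAAF1* (log2 fold change -1.57), *LYRM4* overlaps *FARS2* (-1.40), *PET117* overlaps *KAT14* (-0.89) and *COA1* overlaps *STK17A* (-0.40). Other partners of depleted members were not lower: *ZNF142* at *BCS1L* (0.82), and *TP53INP1* and *CCNE2* at *NDUFAF6* (0.64 and 0.010). The part of the overlapping genes in the members' values was not tested. *COX10*, *COA7*, *LYRM7* and *COX20* overlap no named gene in that table. By position, 9 of the 51 members lie on chromosome 17, among them *COX10*, *COX11*, *COA3* and *SCO1*, which went in different directions.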

How the data were processed

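RIP and input libraries, 3 each, were grouped and numbered by their titles. Per the submitters' processing notes, reads were handled with fastp 0.23.2, STAR 2.7.10a, featureCounts and DESeq2 on hg38. The authors deposited raw read counts per gene and FPKM values of the same 20020 genes. The annotation, the strand setting and the treatment of multiply aligned reads could not be read from these sources. Each gene's length was taken from its counts, FPKM and column totals, which agreed on a whole number to within 2.33e-10 nt.

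Counts were filtered with filterByExpr (12856 genes), scaled with TMM and tested with edgeR 4.0.16's quasi-likelihood test (robust, group only) in R 4.3.3, and p-values were adjusted over all genes by Benjamini-Hochberg. SEs come from log2 CPM between libraries. The fit and the length correction (loess, span 0.3) were tested on simulated data. Alternatives used limma 3.58.1 and DESeq2 1.42.0. Symbols of all 51 members matched RefSeq (GRCh38.p14), whose spans are printed.

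The members and lists were chosen with earlier results of these data known. All members could be named. Values per library were given for up to 3 called members per direction and role. These had to have a mean of at least 5 CPM and all RIP libraries beyond all inputs. Their lack of overlap between groups therefore follows from the choice. Values per library were also given for the partner pairs, and for *COX14*, *COX16*, *COX18*, *ACAD9*, *UQCC6* and *TTC19*, added after their values were seen. Outside these rules, counts per library were printed for *PET100* and *PET117*, and RIP counts for *SDHAF1*, all with few reads. From the other lists, up to 2 called genes per direction were eligible. *TMEM126B*, *TMEM186*, *TIMMDC1*, *DMAC2*, *OXA1L*, *COX7A2L*, *LRPPRC* and the 3 mitochondrial mRNAs were added after their values were seen. Same-numbered RIP and input libraries had correlations of deviations of 0.027, -0.15 and 0.078, so the numbers were not used as pairs. Chi-square per gene between replicates was 3.33 to 8.06, above sampling noise.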

Additional observations from a re-analysis of the deposited data

How the results depend on the processing

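The counts of 10 enriched and 33 depleted members were within 1.5 times of the main values in each alternative, except that the length correction gave 17 enriched. The median log2 fold change was -0.80, and it was -0.77 with RLE scaling, -0.89 with upper-quartile scaling, -1.04 with library size alone, -0.78 in DESeq2, -0.75 with a filter of 5 CPM in 3 libraries, -0.48 with the length correction, -0.71 on log2(FPKM + 1) and -1.01 on log2(FPKM + 0.1). Leaving out 1 library gave medians of -0.90 to -0.76, 10 enriched and 32 to 34 depleted members. The replicate block gave 10 and 33, the same genes as without it. A test against a 1.5-fold change called 7 enriched and 27 depleted members, 2973 and 3358 of all genes, 1 enriched other factor and 2 enriched subunits. With the length correction 9 other factors and 21 subunits were enriched. Of 891 comparisons of a single tested member with an alternative, 846 kept their call, 19 lost it, 16 gained one and 10 changed direction. Direction turned with the length correction for *COX18* (-0.32), *SDHAF3* (0.45), *COA8* (0.29), *LYRM1* (0.53), *TTC19* (0.19), *ATPAF2* (0.69) and *NDUFAF8* (0.89), and for *COX18* also with library size alone (-0.20), on log2(FPKM + 1) (-0.15) and on log2(FPKM + 0.1) (-0.19). Apart from *SDHAF3* and *NDUFAF8*, these were not called in the main test. The causes were not tested. Members under 1 CPM (*PET100*, *PET117*, *LYRM9*, *UQCC3*) are limited by depth.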

Other observations

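Of the mitochondrial mRNAs whose products the factors handle, *MT-CO1* had 25774 ± 217 CPM in RIP against 23951 ± 2337 CPM in input, which did not pass the test (edgeR adjusted p = 0.0595), and *MT-CO2* was 2.58-fold lower (edgeR adjusted p = 5.39e-21). *MT-CYB*, whose product the UQCC proteins stabilise, was 1.58-fold higher while *UQCC2* was 7.18-fold lower. With the length correction the log2 fold changes of the 3 mRNAs were 1.03, 0.19 and 1.83. Of all 13 mitochondrial mRNAs, 4 were enriched, 3 depleted and 6 not called in the main test, 3 were enriched and 8 depleted when scaled by library size only, and 13 were enriched with the length correction, where 40.2% of all tested genes were. *OXA1L*, the insertase of the inner membrane, was 1.16-fold higher at 139 ± 5.68 CPM in RIP. With library size alone as the scale *OXA1L* had a log2 fold change of -0.028 and was not called. *COX7A2L*, which joins complexes into supercomplexes, was 2.98-fold lower, and *LRPPRC*, which stabilises mitochondrial mRNAs, 1.92-fold lower.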
